A study of Mus musculus with 14 samples.

Results

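The actin filament and actomyosin genes are the genes that build, branch, cap, cross-link and pull on the actin cytoskeleton. They were taken by name from a table of raw read counts per gene: actins, thymosins, profilin, cofilin, the Arp2/3 complex and its activators, formins, capping proteins and gelsolins, coronins, tropomyosins, cross-linkers, ezrin-radixin-moesin linkers, myosin chains and unconventional myosins, and the intermediate filament gene Vim. The names matched 91 of 22155 genes. The rule used names and no measured value, but it was set with earlier results of these data known. The cells were mouse MLL-AF9 leukemia cells that express Cas9, transduced by lentivirus with an ipUSEPR vector carrying sgSgf29, which targets the Tudor domain gene Sgf29, or the control sgCtrl. Both groups were selected in puromycin at 2 µg/ml for 3 days, and mRNA of 3 libraries per group was sequenced to 16003990 to 21786618 gene counts. The labels do not state separate cultures, and the library numbers may be repeats or different sgRNA sequences, so p-values measure only the spread between these libraries, which may be technical.

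Actin is kept as a pool of monomers, bound by thymosins and profilin, and as filaments that formins extend and that the Arp2/3 complex branches. Capping proteins, gelsolin, cofilin and coronins limit or take apart these filaments, while tropomyosins and cross-linkers shape them into cables, meshes and bundles on which myosins move. In myeloid cells this machinery drives crawling, phagocytosis and adhesion.

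Sgf29 mRNA was lower in every sgSgf29 library, at 12.6, 13.4 and 17.4 CPM (a gene's counts over the library's gene counts, per 1e6, with libraries scaled by TMM, the trimmed mean of M values) against 36.2, 40.4 and 40.4 CPM in the sgCtrl libraries (log2 fold change -1.43, SE 0.11, adjusted p = 2.9e-10 in the quasi-likelihood test of edgeR). Cytoplasmic ribosomal protein genes took 12.8% ± 0.914 of gene counts in the sgSgf29 libraries and 19.4% ± 0.380 in the sgCtrl libraries (SD, n = 3 each), and the TMM factors were 1.06 to 1.10 in sgSgf29 and 0.917 to 0.934 in sgCtrl. Of 11 genes fixed as marks of myeloid leukemia cells, all were tested, 6 were higher and 4 lower in sgSgf29, and their summed level was 14250 to 14940 CPM in sgSgf29 against 21640 to 24240 CPM in sgCtrl. Most of this sum was of 2 of the lower genes, Elane (mean 9302 CPM in sgSgf29, 14238 CPM in sgCtrl) and Prtn3 (1912 CPM in sgSgf29, 7034 CPM in sgCtrl). The 6 higher genes included Lyz2 (mean 1156.5 CPM in sgSgf29, 335 CPM in sgCtrl) and Itgam (532 CPM in sgSgf29, 137 CPM in sgCtrl). Of 12 markers of mature macrophages and neutrophils, 10 were tested, 7 were higher and 2 lower, and their summed level was 1496 to 1623 CPM in sgSgf29 against 1187 to 1253 CPM in sgCtrl. Most of this sum was of Camp, which was lower (mean 896 CPM in sgSgf29, 1003 CPM in sgCtrl), and Mmp9, which was higher (412 CPM in sgSgf29, 105 CPM in sgCtrl). The macrophage marker Adgre1 had 24.4, 23.7 and 25.6 CPM in sgSgf29 against 1.27, 1.14 and 1.10 CPM in sgCtrl. The 2 lower were Ltf (log2 fold change -0.86, edgeR adjusted p = 9.7e-10) and Camp (log2 fold change -0.16, edgeR adjusted p = 0.039). The macrophage marker Csf1r did not pass (log2 fold change 0.33, edgeR adjusted p = 0.13). The part of these markers in the results below was not tested, and in bulk RNA fewer cells of a type and less RNA per cell cannot be told apart. The 10 muscle markers, which share actin and myosin family members, summed to 8.75 to 9.51 CPM in sgSgf29 and 6.90 to 8.24 CPM in sgCtrl, and of the 3 tested 1 was higher and 1 lower. The 9 markers of fibroblasts and stroma summed to 6.50 to 8.36 CPM in sgSgf29 and 3.50 to 4.15 CPM in sgCtrl. Of these Col3a1, Dcn, Lum, Pdgfrb and Cdh5 had 0 counts in every library, and the 1 tested was Pecam1, an adhesion molecule also found on leukocytes, with 7.03 CPM in sgSgf29 and 3.76 CPM in sgCtrl on average (log2 fold change 0.91, edgeR adjusted p = 1.0e-04).

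Genes of actin filaments were mostly higher in the sgSgf29 cells. Of the 91 members, 65 had enough counts to be tested; edgeR called 41 of these higher and 6 lower at an adjusted p under 0.05, and 18 did not pass. The background was large, since 35.4% of all 11169 genes tested were called higher and 34.4% were called lower. These shares are the background for the counts of calls in each role group and list below. Among the tested members 63.1% were called higher and 9.23% lower, and their median log2 fold change was 0.38, beside 0.01 over all genes tested. A rise of 2-fold or more was called for 10 of the 65 tested members, beside 10.1% of all genes tested. Of the 62 that reached the count filter in both groups it was called for 8 (12.9%). The 10.1% was not limited in that way, so the 12.9% has no like background. A fall of 2-fold or more, called for 4.67% of all genes tested, was called for 0 members, since the lowest log2 fold change of a tested member was -0.84 whatever its p (0 also with DESeq2). Scaled by library size alone, 50 members were higher and 3 were lower with a median of 0.61, while over all genes tested 5575 were higher and 2385 lower with a median of 0.24. In 43 members every sgSgf29 library was above every sgCtrl library, and in 8 every one was below, beside 37.0% and 35.1% of all genes tested. Tpm4 and Myh14 reached the count filter only through the sgSgf29 libraries and so had to differ. Over the 62 tested members that reached it in both groups, 39 were higher, 6 were lower and the median was 0.36. The other 26 members did not pass the filter and had at most 0.737 CPM in any library, and 12 of them had 0 counts in every library. Together the 91 genes took 2.92% ± 0.0435 of gene counts in sgSgf29 and 2.15% ± 0.0616 in sgCtrl (SD, n = 3 each).

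**Figure D1:**
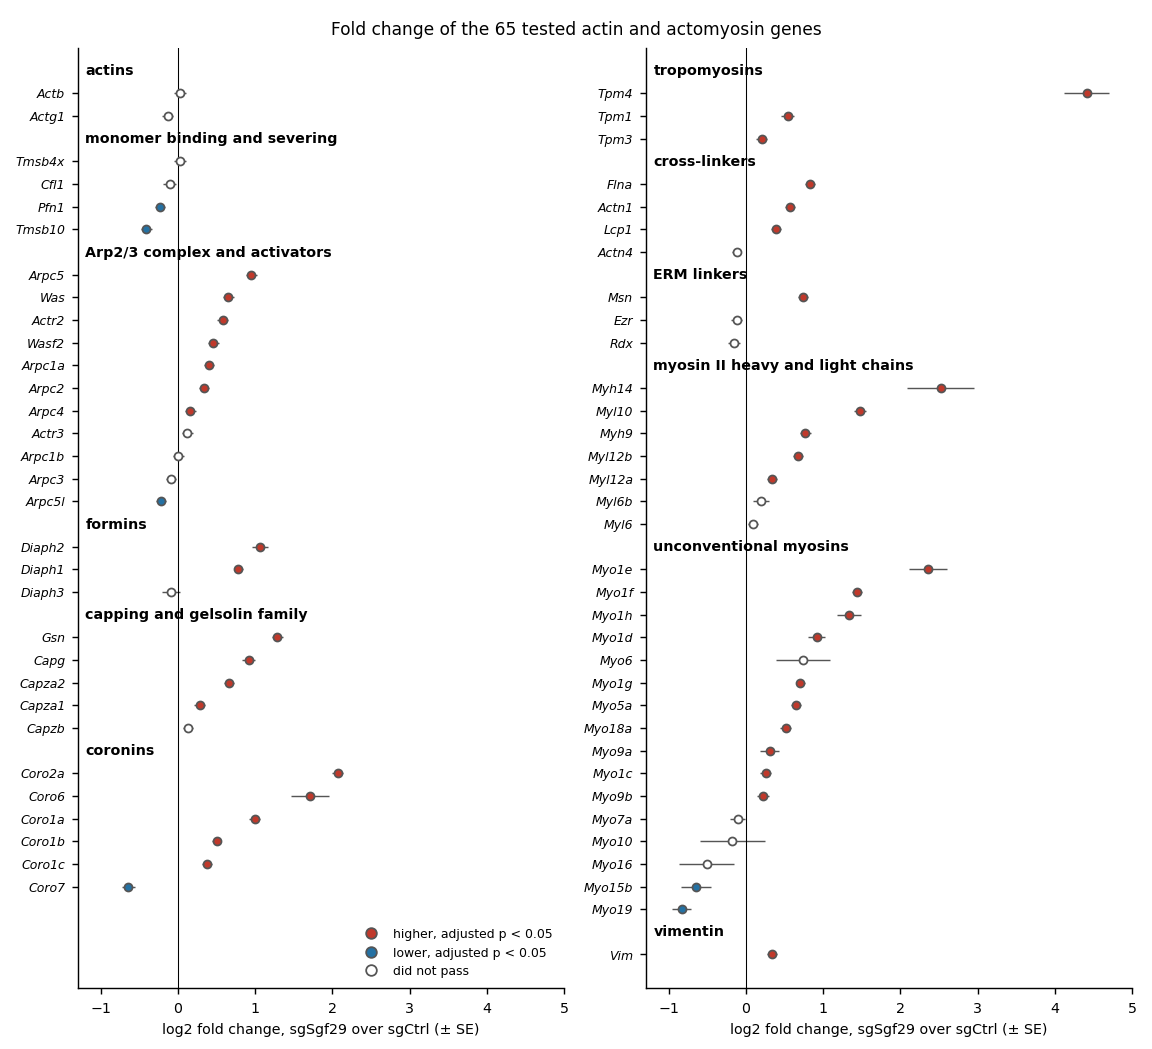
Log2 fold change of sgSgf29 over sgCtrl, with its standard error, for each of the 65 tested members, grouped by role and ordered within a role. Red points were higher (41), blue points lower (6) and open points (18) not called, with edgeR's adjusted p under 0.05 as the limit; Tpm4, at 4.41, lies farthest to the right.

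The 2 actin genes of nonmuscle cells, Actb and Actg1, were not called with TMM scaling. Actb, beta-actin, had 4188, 4041 and 4101 CPM in sgSgf29 against 4163, 3860.4 and 4109 CPM in sgCtrl, and the groups overlapped (log2 fold change 0.02, SE 0.08, edgeR adjusted p = 0.80). Actg1, gamma-actin, had 848, 857 and 865 CPM in sgSgf29 against 981, 883 and 960.5 CPM in sgCtrl (log2 fold change -0.14, SE 0.07, edgeR adjusted p = 0.083). Its 3 sgSgf29 libraries all lay below the sgCtrl libraries, so the groups did not overlap although the test did not pass. Actg1 passed as lower without the sgCtrl 2 library (log2 fold change -0.18, edgeR adjusted p = 0.044) and with DESeq2 (adjusted p = 0.020). It has 6 near-identical copies in the genome (at least 95% identity over 150 bases), so its counts are uncertain. The level of Actb rests on the scaling: Actb and Tmsb4x together took 0.929% ± 0.0108 of raw gene counts in sgSgf29 and 0.779% ± 0.0210 in sgCtrl (SD, n = 3 each). Without TMM, on library sizes alone, Actb was called higher at a log2 fold change of 0.25 (edgeR adjusted p = 0.0017), while the median of all genes tested moved to 0.24.

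Actin genes are classic targets of serum response factor (SRF), whose partners of the MRTF family are held inactive by monomeric actin, and which binds the CArG box, an A- and T-rich stretch between a C pair and a G pair that reads the same on both strands. RefSeq promoter windows on GRCm38.p6, running from 250 bases before to 50 bases after an annotated start, were found for 80 members. A CArG box lay in 7 of their 100 windows (7%), in 7 genes, beside 535 of 32851 windows (1.63%) of all genes. These were Actg1, Arpc4, Myl6, Myo1e, Myl3, Myl7 and Myl9. The 100 bases before the start are shown for 4 of them, 5′ to 3′ on the gene's strand with the CArG box in capitals, because the box stands before members that were high and not called, low and rising, and silent.
Actg1: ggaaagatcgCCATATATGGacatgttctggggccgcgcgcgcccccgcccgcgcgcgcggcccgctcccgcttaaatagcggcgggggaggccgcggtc
Myo1e: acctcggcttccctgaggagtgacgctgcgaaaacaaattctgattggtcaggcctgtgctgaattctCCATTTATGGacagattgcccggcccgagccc
Myl3: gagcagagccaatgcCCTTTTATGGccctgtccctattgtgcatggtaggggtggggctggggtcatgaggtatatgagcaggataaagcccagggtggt
Myl7: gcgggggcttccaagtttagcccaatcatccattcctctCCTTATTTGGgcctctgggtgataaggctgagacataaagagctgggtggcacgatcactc
The Actg1 stretch is chr11:120348496-120348595 (minus strand) and its box begins 90 bases before the start. The Myo1e stretch is chr9:70207250-70207349 (plus strand), with the box beginning 32 bases before the start. The others are chr9:110763578-110763677 (plus strand, box 85 bases before) for Myl3 and chr11:5898783-5898882 (minus strand, box 61 bases before) for Myl7. Myl3 and Myl7, light chains of heart muscle myosin, had 0 counts in every library, whereas Actg1 was among the most abundant members and Myo1e rose, as given below. A match is a description of the sequence and not a site of binding. Srf itself had 111, 116 and 127 CPM in sgSgf29 against 155, 151 and 159 CPM in sgCtrl, a fall of every library (log2 fold change -0.40, SE 0.07, edgeR adjusted p = 1.9e-05). Mkl1, the gene of the actin-sensing partner MRTF-A, had 90.0, 103 and 91.0 CPM in sgSgf29 against 43.2, 46.7 and 42.8 CPM in sgCtrl (log2 fold change 1.10, SE 0.07, edgeR adjusted p = 3.9e-11). Of the 5 tested genes listed for SRF and its partners, 3 were called higher and 2 lower. The others were Mkl2 and Elk1, higher at log2 fold changes of 0.41 and 0.38, and Elk4, lower at -0.41.

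In the role group of thymosins, profilin and cofilin, which leaves out the severing gene Gsn given below, none was called higher with TMM scaling. Of its 8 genes in the table, 4 were tested, 0 were higher, 2 were lower and 2 did not pass with edgeR. At an unadjusted p under 0.05 the count of higher genes among these 4 was also 0, and with DESeq2 it was 0. Tmsb4x, thymosin beta 4, which sequesters monomers, had 4538, 4326 and 4534 CPM in sgSgf29 against 4448, 4228 and 4523 CPM in sgCtrl, and the groups overlapped (log2 fold change 0.02, SE 0.08, edgeR adjusted p = 0.82). On library sizes alone Tmsb4x was called higher at 0.25 (edgeR adjusted p = 0.0020), where the median of all genes tested was 0.24. Its relative Tmsb10 fell, with 261, 218 and 222 CPM in sgSgf29 against 319, 299 and 312 CPM in sgCtrl (log2 fold change -0.41, SE 0.07, edgeR adjusted p = 3.2e-05). Tmsb10 has 1 near-identical copy, Gm9844, which held 1.52 to 1.58 CPM in sgSgf29 and 2.34 to 3.30 CPM in sgCtrl. Pfn1, profilin 1, which delivers monomers to growing ends, had 973, 936 and 966 CPM in sgSgf29 against 1131, 1113 and 1135 CPM in sgCtrl (log2 fold change -0.23, SE 0.07, edgeR adjusted p = 0.0041). Every sgSgf29 library lay below every sgCtrl library for both, but the call of Pfn1 was lost with scaling by library size alone, where its log2 fold change was -0.00. Cfl1, cofilin 1, which severs old filaments, had 1222, 1223 and 1296 CPM in sgSgf29 against 1262, 1255 and 1520.3 CPM in sgCtrl (log2 fold change -0.11, SE 0.08, edgeR adjusted p = 0.23). The 4 members Tmsb15a, Tmsb15b1, Tmsb15b2 and Tmsb15l did not pass the filter on low counts.

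The Arp2/3 complex, which starts branches on the side of a filament, held genes that were called higher, called lower and not called with TMM scaling. Of its 7 subunit types with their isoforms and the activators Was and Wasf2, 11 genes were tested, and 7 were higher, 1 was lower and 3 did not pass with edgeR. On library sizes alone 10 of the 11 were higher and the other, Arpc5l, did not pass, at a median log2 fold change of 0.57. Arpc5 changed most, with 485, 494 and 483 CPM in sgSgf29 against 235, 245 and 278 CPM in sgCtrl (log2 fold change 0.95, SE 0.07, edgeR adjusted p = 2.1e-10). Its isoform Arpc5l, which can take the same place in the complex, had 61.6, 59.9 and 61.5 CPM in sgSgf29 against 73.9, 69.0 and 70.3 CPM in sgCtrl (log2 fold change -0.22, SE 0.06, edgeR adjusted p = 0.0049). Within each library Arpc5 had 7.87, 8.24 and 7.86 times the counts of Arpc5l in sgSgf29, against 3.18, 3.54 and 3.96 times in sgCtrl. The ratio does not depend on scaling, and its log2 differed by 1.17 with no overlap (exact permutation test, two-sided, p = 0.1, the smallest that 3 against 3 libraries allow). Arpc5l overlaps exons of Wdr38 on its own strand and of Rpl35 on the other, and its log2 fold change was 0.01 with scaling by library size alone.

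The other subunits had smaller log2 fold changes than Arpc5. Actr2, the Arp2 subunit, had 372, 389.5 and 382 CPM in sgSgf29 against 239, 243 and 283 CPM in sgCtrl (log2 fold change 0.58, SE 0.07, edgeR adjusted p = 3.2e-07). Actr3, the Arp3 subunit that pairs with it, had 459.8, 485 and 510.0 CPM in sgSgf29 against 421, 436 and 485 CPM in sgCtrl, and the groups overlapped (log2 fold change 0.12, SE 0.07, edgeR adjusted p = 0.14). Actr3 passed without the sgSgf29 1 library (edgeR adjusted p = 0.048) and without the sgCtrl 3 library (edgeR adjusted p = 0.020), and on library sizes alone it was higher at 0.35 (edgeR adjusted p = 1.5e-04). Arpc2, the subunit that anchors the branch on the mother filament, had 674, 659 and 660.0 CPM in sgSgf29 against 496, 514 and 567 CPM in sgCtrl (log2 fold change 0.34, SE 0.07, edgeR adjusted p = 1.7e-04). Arpc1b, the isoform common in blood cells, had 1265, 1213 and 1254 CPM in sgSgf29 against 1183, 1198 and 1342 CPM in sgCtrl (log2 fold change 0.00, SE 0.07, edgeR adjusted p = 0.97). Its sign changed with the scaling, and the sgCtrl libraries spread from below to above all 3 sgSgf29 libraries. Was, the activator mutated in Wiskott-Aldrich syndrome, had 151, 161 and 163 CPM in sgSgf29 against 94.3, 97.4 and 110.3 CPM in sgCtrl, so that each sgSgf29 library was higher (log2 fold change 0.65, SE 0.07, edgeR adjusted p = 4.7e-08). The call of Arpc4 as higher (log2 fold change 0.16, edgeR adjusted p = 0.042) was lost without the sgCtrl 1 library (edgeR adjusted p = 0.21), the sgCtrl 2 library (0.13) or the sgSgf29 3 library (0.093).

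**Figure D2:**
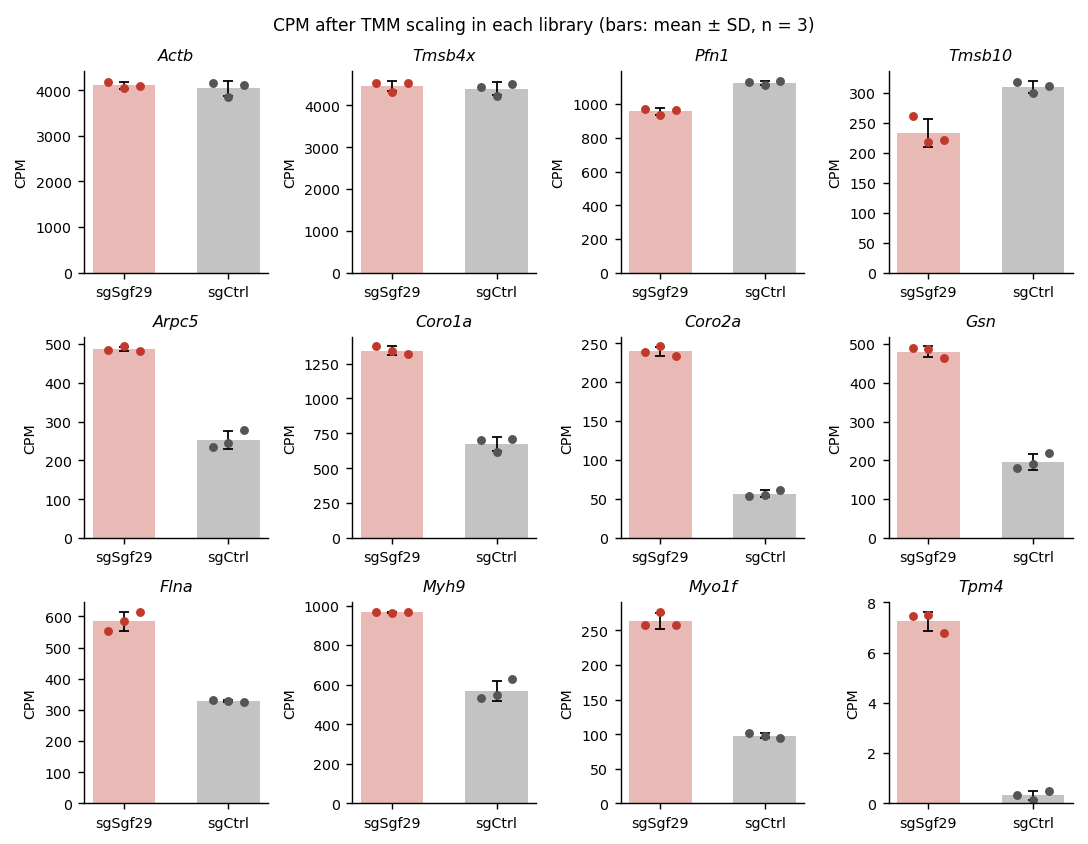
CPM after TMM scaling of 12 members in each library. Each dot is 1 library, each bar a mean with its SD (n = 3), and axes start at 0; points of Actb and Tmsb4x overlap between groups, those of Pfn1 and Tmsb10 are lower in sgSgf29, and those of the other 8 genes are higher in sgSgf29.

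Of the 3 tested formins 2 were called higher. Diaph1, a formin that extends unbranched filaments, had 298, 278 and 293 CPM in sgSgf29 against 170.0, 164 and 172 CPM in sgCtrl (log2 fold change 0.78, SE 0.06, edgeR adjusted p = 6.7e-10). Diaph2, another formin of the family, had 37.0, 37.5 and 35.5 CPM in sgSgf29 against 14.9, 20.3 and 17.5 CPM in sgCtrl (log2 fold change 1.06, SE 0.10, edgeR adjusted p = 6.9e-09). The groups were apart for both, while Diaph3 was at -0.09 on the log2 scale and did not pass with edgeR. Of 6 genes of capping proteins and the gelsolin family, 5 were tested, 4 were higher and 1, Capzb, was at 0.13 on the log2 scale and did not pass with edgeR. Gsn, gelsolin, which severs and caps filaments when calcium rises, had 488, 488 and 464 CPM in sgSgf29 against 180.1, 189.7 and 220.1 CPM in sgCtrl (log2 fold change 1.29, SE 0.07, edgeR adjusted p = 4.2e-12). Capg, a capping protein of macrophages that does not sever, had 142, 122.6 and 113 CPM in sgSgf29 against 64.7, 62.3 and 72.4 CPM in sgCtrl (log2 fold change 0.91, SE 0.08, edgeR adjusted p = 3.1e-09). For both the lowest sgSgf29 library lay well above the highest sgCtrl library, and their role group summed to 1335 ± 25.1 CPM in sgSgf29 and 878 ± 42.1 CPM in sgCtrl (SD, n = 3 each).

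Coronins, which bind filaments and Arp2/3 and help to debranch and take down old networks, changed in all 6 tested genes, of which 5 were higher and 1 was lower with edgeR. Coro1a, the coronin of blood cells, had 1374, 1341 and 1315 CPM in sgSgf29 against 699, 618 and 707 CPM in sgCtrl (log2 fold change 0.99, SE 0.07, edgeR adjusted p = 1.9e-10). Per kilobase of annotated exon it stood at 483 CPM in sgSgf29, after only Tmsb4x (3257 CPM) and Actb (1534 CPM) among the members. In sgCtrl its level per kilobase was 242 CPM, close to that of Tmsb10 and Arpc1b (both 243 CPM) and below those of Cfl1 (473 CPM), Pfn1 (468 CPM), Actg1 (354 CPM) and Arpc2 (259 CPM). Coro1a overlaps Bola2 on the opposite strand, and reads of both cannot be told apart if strand was not used in counting. Coro2a had the smallest adjusted p of the members, with 239, 246 and 234 CPM in sgSgf29 against 54.3, 55.4 and 61.6 CPM in sgCtrl (log2 fold change 2.07, SE 0.07, edgeR adjusted p = 9.8e-16). Coro6, known from skeletal muscle, was low, with 8.03, 11.7 and 6.50 CPM in sgSgf29 against 2.99, 3.55 and 1.70 CPM in sgCtrl (log2 fold change 1.71, SE 0.24, edgeR adjusted p = 2.6e-06). The lower member was Coro7, the coronin of the Golgi, with 134, 148 and 135 CPM in sgSgf29 against 223, 245 and 185 CPM in sgCtrl (log2 fold change -0.65, SE 0.08, edgeR adjusted p = 6.3e-07). In all of these the groups were apart, and Coro7 shares exon sequence with Dnaja3 on the opposite strand.

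**Figure D3:**
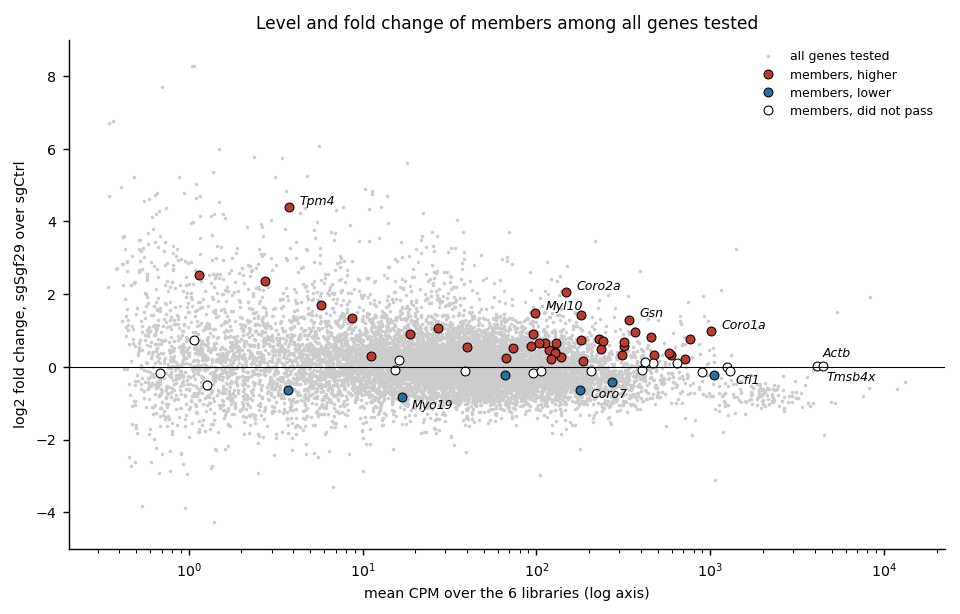
Log2 fold change of sgSgf29 over sgCtrl against the mean CPM over the 6 libraries (log axis) for the 11169 genes tested (grey) and the 65 tested members (red higher, blue lower, white not passed). The members at the right end, Actb and Tmsb4x, lie near 0, and most members of middle level lie above 0.

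Tropomyosins, rods that lie along the filament and decide which proteins reach it, were tested for 3 genes. Tpm1 and Tpm3 reached the count filter in both groups, and both were called higher with edgeR. Tpm4 passed the filter only through the sgSgf29 libraries, so its call was fixed by the filter and its values are a description. Tpm4 had 7.44, 7.48 and 6.79 CPM in sgSgf29 against 0.318, 0.134 and 0.4996 CPM in sgCtrl (log2 fold change 4.41, SE 0.29, edgeR adjusted p = 3.7e-11). The gene was below the level of the count filter (0.556 CPM) in every sgCtrl library and well above it in every sgSgf29 library, but it stayed the lowest of the tested tropomyosins per kilobase of exon, at 3.29 CPM in sgSgf29 and 0.144 CPM in sgCtrl. Tpm4 has 1 near-identical copy, Gm7809, that could draw some of its reads. Tpm1 had 49.3, 42.4 and 49.4 CPM in sgSgf29 against 35.0, 32.3 and 30.0 CPM in sgCtrl (log2 fold change 0.54, SE 0.08, edgeR adjusted p = 9.1e-06). Tpm3, the main tropomyosin of these cells per kilobase of exon (126 CPM in sgSgf29 and 109 CPM in sgCtrl), had 724, 744 and 827 CPM in sgSgf29 against 690.2, 653 and 650.3 CPM in sgCtrl (log2 fold change 0.20, SE 0.07, edgeR adjusted p = 0.014). Its groups did not overlap, but without the sgSgf29 3 library the call was lost (log2 fold change 0.15, edgeR adjusted p = 0.080). Tpm2, best known from muscle, did not pass the filter.

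Cross-linkers rose in 3 of 4 tested genes. The exception was Actn4, alpha-actinin 4, whose sgSgf29 libraries all lay below the sgCtrl libraries (log2 fold change -0.12, edgeR adjusted p = 0.078), and which DESeq2 called lower (adjusted p = 0.040). Flna, filamin A, which joins filaments into a mesh and ties them to the membrane, had 554, 586 and 615 CPM in sgSgf29 against 331, 329 and 327 CPM in sgCtrl (log2 fold change 0.83, SE 0.06, edgeR adjusted p = 5.0e-10). Lcp1, the plastin of leukocytes, had 644, 657 and 669.9 CPM in sgSgf29 against 477, 487 and 544 CPM in sgCtrl (log2 fold change 0.39, SE 0.07, edgeR adjusted p = 4.1e-05). Actn1, alpha-actinin 1, had 106, 113 and 117 CPM in sgSgf29 against 69.6, 79.1 and 77.6 CPM in sgCtrl (log2 fold change 0.57, SE 0.07, edgeR adjusted p = 2.8e-07). All 3 genes were apart between the groups, while the bundler Fscn1 did not pass the filter. Of the 3 linkers of filaments to the membrane, 1 (33.3%) was higher, near the 35.4% of all genes tested, and 2 did not pass with edgeR. Msn, moesin, had 221, 229 and 228 CPM in sgSgf29 against 131, 146 and 130.0 CPM in sgCtrl (log2 fold change 0.74, SE 0.07, edgeR adjusted p = 3.4e-09). Its relative Ezr, ezrin, had 109, 95.5 and 103 CPM in sgSgf29 against 104, 115 and 116 CPM in sgCtrl (log2 fold change -0.12, SE 0.07, edgeR adjusted p = 0.11). The groups overlapped for Ezr, and for Rdx, radixin, which was at -0.16 on the log2 scale with an edgeR adjusted p = 0.062 and passed as lower without the sgCtrl 3 library (0.010), with RLE scaling (0.046) and with TMM factors set without ribosomal protein genes (0.0498). Vim, vimentin, whose intermediate filaments run beside those of actin, had 528, 519.7 and 543 CPM in sgSgf29 against 412, 406 and 443 CPM in sgCtrl, with the groups apart (log2 fold change 0.33, SE 0.06, edgeR adjusted p = 1.1e-04).

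Myosin II is the motor that makes filaments contract. Of its 14 heavy and light chain genes, 7 were tested, and 5 were higher, 0 were lower and 2 did not pass with edgeR, while DESeq2 also called 0 lower and at an unadjusted p under 0.05 the lower count was 0. Myh9, the heavy chain of nonmuscle myosin IIA, had 967, 964 and 969 CPM in sgSgf29 against 531, 547 and 626 CPM in sgCtrl (log2 fold change 0.77, SE 0.07, edgeR adjusted p = 8.8e-09). Myh10, the heavy chain of myosin IIB, did not pass the filter. Myl12b, a regulatory light chain, was at 0.67 on the log2 scale and its close relative Myl12a at 0.34, and both rose, but they are near-identical over part of their exons and may share reads. Myl10, a regulatory light chain known from precursor lymphocytes, had 164, 136 and 134 CPM in sgSgf29 against 50.3, 54.0 and 51.3 CPM in sgCtrl (log2 fold change 1.48, SE 0.08, edgeR adjusted p = 1.2e-12). Myl6, the essential light chain of nonmuscle myosin, had 654, 654 and 680.1 CPM in sgSgf29 against 622, 591 and 651 CPM in sgCtrl (log2 fold change 0.09, SE 0.07, edgeR adjusted p = 0.22). Myl6b, a relative of Myl6, did not pass either (log2 fold change 0.19, edgeR adjusted p = 0.11). Heavy chain and regulatory light chains were thus apart between groups by a wide margin, and Myl6, which has 5 near-identical copies in the genome, by a narrow one. Myh14, the heavy chain of myosin IIC, was low, with 2.75, 1.76 and 1.42 CPM in sgSgf29 against 0.127, 0.402 and 0.450 CPM in sgCtrl (log2 fold change 2.52, SE 0.43, edgeR adjusted p = 2.6e-05), and its call too was fixed by the filter. The light chains of muscle Myl1, Myl2, Myl3, Myl4, Myl7 and Myl9 did not pass the filter.

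Unconventional myosins, which tether membranes and carry cargo, held rises and falls. Of 25 in the table, 16 were tested, 10 were higher, 2 were lower and 4 did not pass with edgeR. Myo1f, a class I myosin of leukocytes, had 257, 277 and 258 CPM in sgSgf29 against 102, 97.4 and 94.3 CPM in sgCtrl (log2 fold change 1.43, SE 0.06, edgeR adjusted p = 1.2e-13). Myo1e, its closest relative in structure, was much lower in level, with 4.69, 4.46 and 4.64 CPM in sgSgf29 against 0.890, 0.937 and 0.849 CPM in sgCtrl (log2 fold change 2.36, SE 0.25, edgeR adjusted p = 3.5e-08). Both were long-tailed class I myosins, and for both every sgSgf29 library was above every sgCtrl library. Myo1h, another class I gene, had 13.4, 11.99 and 12.1 CPM in sgSgf29 against 4.70, 6.43 and 3.90 CPM in sgCtrl, and it overlaps Kctd10 on the opposite strand (log2 fold change 1.33, SE 0.16, edgeR adjusted p = 2.5e-07). Myo1g, a class I myosin of blood cells, Myo1d and Myo1c rose as well, by log2 fold changes of 0.70, 0.91 and 0.25. All 6 tested class I myosins were called higher. Myo5a, which carries vesicles and organelles, rose by 0.65 and Myo18a by 0.51 on the log2 scale. The falls were of Myo19, the myosin of mitochondria, with 10.6, 13.3 and 12.1 CPM in sgSgf29 against 20.4, 24.9 and 19.4 CPM in sgCtrl (log2 fold change -0.84, SE 0.12, edgeR adjusted p = 2.6e-06), and of the low Myo15b. Myo19 overlaps Pigw and Znhit3 on the opposite strand, and Myo15b (log2 fold change -0.65, edgeR adjusted p = 0.0065) did not pass on library sizes alone (edgeR adjusted p = 0.066). Myo9a and Myo9b, the class IX myosins, were called higher at log2 fold changes of 0.31 and 0.22. Myo9a lost its call without the sgSgf29 2 library (edgeR adjusted p = 0.095), the sgCtrl 1 library (0.062) or the sgCtrl 3 library (0.078), and Myo9b without the sgSgf29 2 library (0.077) or the sgCtrl 3 library (0.070).

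Calls were also counted by level, with no test of a difference between the counts. The 12 members with the highest mean CPM were a group taken after the values were seen. Of these, 5 (41.7%) were higher, 1 (8.33%) was lower and 6 did not pass with edgeR, and their median log2 fold change was 0.06. Of all genes tested, 35.4% were called higher and 34.4% lower, at a median of 0.01. Of the other 53 tested members, 36 (67.9%) were higher, 5 (9.43%) were lower and 12 did not pass, and the median was 0.50. The 53 and the 36 include Tpm4 and Myh14, whose calls were fixed by the filter. With at least 1 CPM required in every library, which leaves both out, 34 of 47 were higher and 5 lower, at a median of 0.48. On library sizes alone 9 of the 12 and 41 of the 53 were higher, at medians of 0.29 and 0.73. Tpm4 and Myh14 are again among the 41. Over all 11169 genes tested, 5575 were then higher, at a median of 0.24. The summed level of actins was 4967 ± 69.0 CPM in sgSgf29 and 4985 ± 213.1 CPM in sgCtrl, and that of thymosins, profilin and cofilin was 6905 ± 175.0 CPM in sgSgf29 and 7183 ± 297.9 CPM in sgCtrl (SD, n = 3 each). Coronins summed to 2148 ± 43.0 CPM in sgSgf29 and 1256 ± 37.6 CPM in sgCtrl, a ratio of 1.71. Unconventional myosins summed to 1088 ± 34.0 CPM in sgSgf29 and 694 ± 37.9 CPM in sgCtrl, a ratio of 1.57. Myosin II chains summed to 2534 ± 15.7 CPM in sgSgf29 and 1779 ± 102.8 CPM in sgCtrl, a ratio of 1.42. The sum over actins therefore differed by less than the spread between libraries, and the sums over coronins, unconventional myosins and myosin II by more.

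Pairs of related genes were compared by the ratio of their counts within each library, which no scaling can move. Of 9 pairs, 8 had ratios that did not overlap between the groups, in either direction. Of all single genes tested, 37.0% did not overlap upward and a further 35.1% downward. These shares are of scaled levels and not of ratios, and no share over other gene pairs was computed, so the count of 8 has no like background. Each of these 8 had an exact permutation p = 0.1 (two-sided), the smallest that the design allows, and a Benjamini-Hochberg adjusted p of 0.113 over the 9 pairs. Tmsb4x had 17.4, 19.8 and 20.4 times the counts of Tmsb10 in sgSgf29 against 13.95, 14.1 and 14.5 times in sgCtrl. Actn1 had 0.552, 0.577 and 0.577 times the counts of Actn4 in sgSgf29 against 0.333, 0.362 and 0.360 times in sgCtrl. Coro1a had 4.85, 4.96 and 4.90 times the counts of Coro1b in sgSgf29 against 3.59, 3.31 and 3.54 times in sgCtrl. In these pairs the first gene gained on the second by 0.44, 0.69 and 0.50 on the log2 scale. Arpc1b lost ground to Arpc1a, with 8.16, 8.76 and 8.96 times its counts in sgSgf29 against 11.2, 10.8 and 11.97 times in sgCtrl, a log2 difference of -0.39. Capza1 against Capza2 and Myl12a against Myl12b moved the same way, by log2 differences of -0.38 and -0.34, and Actb gained on Actg1 by 0.16. The groups overlapped for Diaph1 against Diaph2, whose log2 ratio differed by -0.29 (exact permutation test, two-sided, p = 0.2).

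**Figure D4:**
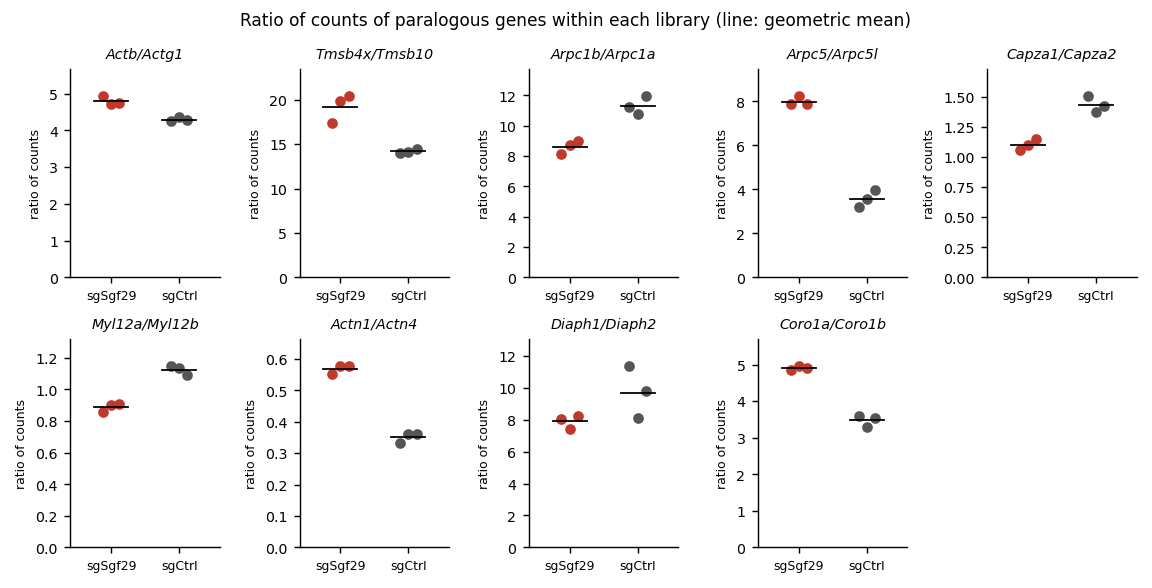
Ratio of the counts of 9 pairs of related genes within each library, with sgSgf29 libraries in red and sgCtrl libraries in grey, the geometric mean as a line and every axis starting at 0. The ratio of Arpc5 to Arpc5l lies between 7.86 and 8.24 in sgSgf29 and between 3.18 and 3.96 in sgCtrl, and the Diaph1 to Diaph2 ratios overlap.

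Other regulators of actin, a list kept apart from the members, were also higher more often than lower. Of 95 in the table, 87 were tested, 58 (66.7%) were higher, 9 (10.3%) were lower and 20 did not pass with edgeR. Their median log2 fold change was 0.39. Of all genes tested, 35.4% were called higher and 34.4% lower. The GTPase Cdc42 had 435, 418 and 427 CPM in sgSgf29 against 279, 277 and 320.0 CPM in sgCtrl, with no overlap (log2 fold change 0.55, SE 0.07, edgeR adjusted p = 4.6e-07). Of the WAVE and WASP complex genes and further formins, 15 of 19 tested were higher and 0 lower with edgeR, also 0 with DESeq2 and at an unadjusted p under 0.05. Hcls1, the cortactin of blood cells, had 284, 278 and 297 CPM in sgSgf29 against 139.7, 130.0 and 151 CPM in sgCtrl (log2 fold change 1.03, SE 0.07, edgeR adjusted p = 3.4e-11). The formin Fmnl1 had 344, 361 and 326 CPM in sgSgf29 against 150.5, 162 and 162 CPM in sgCtrl (log2 fold change 1.12, SE 0.07, edgeR adjusted p = 5.9e-12). Both rose in every library, while Dstn, destrin, a relative of cofilin, fell, with 383, 378 and 399 CPM in sgSgf29 against 522, 564 and 624 CPM in sgCtrl (log2 fold change -0.56, SE 0.07, edgeR adjusted p = 5.8e-07). Of 6 genes that control myosin II, 2 (33.3%) were higher, 2 (33.3%) were lower and 2 did not pass with edgeR, near the shares of all genes tested. Mylk, the kinase of the regulatory light chain, changed most in the list, with 58.0, 57.6 and 52.4 CPM in sgSgf29 against 6.23, 6.16 and 6.25 CPM in sgCtrl (log2 fold change 3.17, SE 0.10, edgeR adjusted p = 2.8e-16). Of the cross-linkers and membrane links outside the members, 12 of 15 tested were higher and 1 lower, with Add3, an adducin of the membrane skeleton, at a log2 fold change of 1.93. Mylk is also a gene of smooth muscle, whose actin Acta2 had 6.56, 6.94 and 6.69 CPM in sgSgf29 against 3.81, 3.01 and 3.15 CPM in sgCtrl, a rise (log2 fold change 1.02, SE 0.17, edgeR adjusted p = 2.4e-05). Of the other muscle markers Des, desmin, fell, with 1.23, 1.40 and 0.635 CPM in sgSgf29 against 2.61, 2.81 and 3.90 CPM in sgCtrl (log2 fold change -1.52, SE 0.30, edgeR adjusted p = 1.2e-04). Tagln was at 0.05 on the log2 scale and did not pass, and Acta1, Actc1, Actg2, Cnn1 and Myh11 were below 0.5 CPM in every library.

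**Figure D5:**
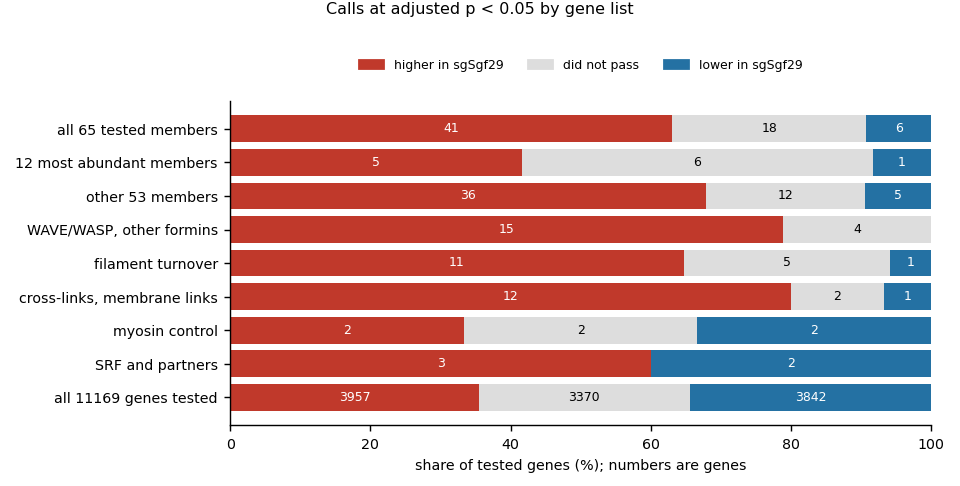
Share of tested genes (in %) called higher (red), not passed (grey) or lower (blue) in sgSgf29 at an adjusted p under 0.05 from edgeR, for the members, the most abundant and the other members, 5 lists of other actin regulators and all genes, with the number of genes in each bar. In the members 41 of 65 are red and 6 are blue, and over all genes 3957 of 11169 are red and 3842 are blue. The 41 include Tpm4 and Myh14, whose calls were fixed by the count filter.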

How the data were processed

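Total RNA was made into libraries with a directional mRNA kit, and the authors deposited raw counts per gene of 6 libraries in 1 table. The other 8 of the 14 samples, of chromatin immunoprecipitation, were not used here. The submitters' processing notes give STAR 2.6.0a and the GRCm38 build, whereas the paper gives another STAR release, featureCounts and edgeR with TMM scaling. Counts given to no gene stood in 5 bookkeeping entries like those of htseq-count (29.1% ± 0.891 of the table in sgSgf29 and 28.8% ± 2.78 in sgCtrl, SD, n = 3 each), which entered neither library sizes nor tests. Among these entries, 1 held alignments that were not unique (5.7% ± 0.43 of the table in sgSgf29 and 7.0% ± 0.58 in sgCtrl, SD, n = 3 each). Which annotation and strand setting were used, and how multiply matching reads were treated beyond that entry, is not given in the sources used here. Overlapping genes and near-identical copies (17 members) are therefore uncertain.

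Genes passed edgeR's filterByExpr with a minimum count of 10 and a minimum total of 15, were scaled by TMM and went into the quasi-likelihood test (edgeR 4.0.16, R 4.3.3), adjusted by Benjamini-Hochberg over all 11169 genes. The biological coefficient of variation was 6.61%. Depth was 16003990 to 21786618 gene counts per library. Related genes were compared by log2 ratios of counts plus 0.5, leaving out 1 pair, Myh9 and Myh10, for too few counts. Alternatives were scaling by RLE, upper quartiles, library size alone or TMM without ribosomal protein genes, other filters, DESeq2 1.42.0, limma-voom (limma 3.58.1), an adjusted p under 0.01, a replicate block and each library left out. Tested on simulated data of 10676 genes for this comparison, the procedure found 99 of 100 genes changed 2-fold and 86 of 100 changed 1.5-fold, and 7 of its 192 calls were false. Only these genes were changed there, as many raised as lowered, far fewer than were called in the data. The simulation therefore did not try the scaling under a shift between the groups, nor changes under 1.5-fold. Libraries of a group differed by more than sampling noise (chi-square over degrees of freedom between 4.60 and 16.0).

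The members, lists and tests were chosen with earlier results of these data known. Values per library were given for a fixed set of genes and, in each role, for the 2 called members with the largest fold change and at least 5 CPM in the higher group. Every other member or regulator named was chosen after its values were seen. Coordinates and promoters are of RefSeq on GRCm38.p6, overlaps and exon lengths of GENCODE on GRCm38.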

Additional observations from a re-analysis of the deposited data

How the results depend on the processing

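Scaling was the choice that moved the results. By library size alone, 2385 of all genes tested were lower and their median log2 fold change was 0.24, 3 members were lower with a median of 0.61, and 3 other regulators of actin were lower with a median of 0.62. Actg1, Cfl1 and Ezr, which did not pass with TMM, then had log2 fold changes of 0.10, 0.12 and 0.11, against -0.14, -0.11 and -0.12 with TMM. On those sizes Actb (log2 fold change 0.25), Tmsb4x (0.25), Arpc1b (0.23), Actr3 (0.35), Arpc3 (0.14), Capzb (0.36), Myl6 (0.32), Myl6b (0.42) and Myo6 (0.97) became called higher with edgeR, and Pfn1, Arpc5l and Myo15b lost their lower calls. Arpc1b was at -0.0075 with RLE scaling, -0.0045 with TMM factors set without ribosomal protein genes and -0.0076 with DESeq2, against 0.00 with TMM. Leaving out each library gave log2 fold changes of -0.031 to 0.062 for Arpc1b, -0.011 to 0.047 for Actb and -0.0085 to 0.055 for Tmsb4x, with the negative values of Actb and Tmsb4x without sgCtrl 2 and those of Arpc1b without sgCtrl 1 or sgCtrl 2. Of the 41 higher members, 40 kept their call under all 5 scalings (the exception was Arpc4) and 37 without each library in turn, and of the 6 lower members 3 and 6 did. Leaving out each library gave 39 to 42 higher and 6 to 8 lower members. Deviations of samples with the same number had correlations of 0.01, 0.06 and 0.08, beside -0.09 to 0.04 for different numbers. So few libraries cannot decide whether the numbers pair them, and the main fit used no pairing. With a replicate block 43 members were higher and 9 lower. Actr3 and Capzb were gained as higher (edgeR adjusted p = 0.041 and 0.029), and Actg1, Actn4 and Rdx as lower (edgeR adjusted p = 0.030, 0.036 and 0.028). What moved Arpc1b, Actb and Tmsb4x was not tested. Genes near the filter, such as Tpm4 in sgCtrl, are limited by depth.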
